A study of Mus musculus with 13 samples.

Results

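CD44 and the enzymes and binding proteins of hyaluronan were described in mouse embryonic fibroblasts (MEFs) made senescent with etoposide and then treated with fucoidan. The 9 genes were Cd44, Has1, Has2, Has3, Hyal1, Hyal2, Cemip, Tnfaip6 and Ugdh, out of 57010 genes listed in the deposited tables, and each was found by matching its symbol to its Ensembl gene ID on the GRCm39 mouse annotation. They were chosen by name, as a pathway, with earlier results of these same counts known, so their differences between the groups are given as a description and support no claim about the pathway.

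The study compared 4 groups, each with cultures from mice 4, 5 and 6. Control cells were wild-type (WT) MEFs that received neither drug. Senescent cells were WT MEFs given etoposide, a topoisomerase II poison that breaks DNA, at 2 µM over 24 h and then left without it for 5 days. Fucoidan 100 and fucoidan 300 were senescent cells that also received Fucoidan-FV, a sulfated sugar polymer from the seaweed Fucus vesiculosus, at 100 or 300 µg/mL, with RNA taken after 12 h. Every group therefore consisted of WT cells from mid-gestation embryos, and every fucoidan culture had also been given etoposide. The study's methods give 3% oxygen for growing MEFs. They state no oxygen level for the etoposide and fucoidan steps of these cultures. No culture of non-senescent cells with fucoidan was analysed here. Control mouse 5 had a pair of libraries, which were summed, and the labels do not say whether both came from the same culture.

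Hyaluronan is a long unbranched sugar polymer of the extracellular matrix. It is made at the plasma membrane by the hyaluronan synthases HAS1, HAS2 and HAS3 from UDP-glucuronic acid, which UGDH supplies, and UDP-N-acetylglucosamine. It is cut by the hyaluronidases HYAL1, a lysosomal enzyme, and HYAL2, which is anchored at the cell surface, and its breakdown in fibroblasts also depends on CEMIP. CD44 is its main cell-surface receptor, with many splice forms, and TNFAIP6 (TSG-6) links proteins to hyaluronan in inflamed matrix.

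The depth was 22782535 to 31278750 counts per library over 13 libraries. The fibroblast label was checked on markers: each of the 8 fibroblast markers had a mean over 1 CPM (counts of the gene per 1000000 counts of the library, scaled by the trimmed mean of M values, TMM) in every group. Their summed level was 10600 to 16510 CPM. In control cultures Dcn was at only 0.726 to 1.57 CPM and Pdgfra at 2.07 to 18.5 CPM. Markers of endothelial, epithelial and mesothelial cells each summed to under 10 CPM in every library. Each sample was correlated with the mean profile of the other mice of its group. The 4 lowest were senescent mouse 6 (Pearson r of 0.9408), control mouse 6 (0.9435), fucoidan 300 mouse 4 (0.9445) and senescent mouse 5 (0.9457), in a range up to 0.9788. Values without a library are given where it decides a result. The 4 skeletal muscle markers summed to 103.7 to 195.4 CPM in control, 148.1 to 359.2 in senescent, 91.66 to 148.1 in fucoidan 100 and 67.78 to 118.9 in fucoidan 300 cultures, with 2 of the 4 over 1 CPM in each group, Myog at 0 in senescent and Myod1 at 0 in fucoidan 100 cultures, and their part in the results was not tested. Genes whose exonic sequence lies wholly in a single annotated transcript, 2081 of the tested genes, were counted unevenly between libraries, with a median log2 deviation from -1.317 in control mouse 6 to 0.927 in fucoidan 100 mouse 5, against -0.147 to 0.233 for genes with under 50% of such sequence.

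The promoters of Cd44, Hyal1, Cemip and Ugdh are shown because these were the genes of the 9 that passed the thresholds in at least 1 comparison. Each window runs from 250 bases before to 50 bases after the RefSeq start, was taken from the RefSeq promoter table of assembly GRCm38.p6, and was placed on GRCm39 by its single exact match there, in which the sequence is read 5′ to 3′ on the strand of the gene. Capitals mark 4 motifs searched on both strands: the AP-1 element TGANTCA, the TATA box TATAAA, the CCAAT box, and the GC box GGGCGG.
Cd44, chr2:102731961-102732260, minus strand: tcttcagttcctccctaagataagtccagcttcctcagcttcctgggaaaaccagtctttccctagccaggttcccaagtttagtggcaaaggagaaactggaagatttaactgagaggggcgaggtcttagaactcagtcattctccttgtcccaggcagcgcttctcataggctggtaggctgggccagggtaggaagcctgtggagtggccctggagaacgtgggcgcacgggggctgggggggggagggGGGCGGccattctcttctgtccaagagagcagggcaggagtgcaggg
Hyal1, chr9:107453899-107454198, plus strand: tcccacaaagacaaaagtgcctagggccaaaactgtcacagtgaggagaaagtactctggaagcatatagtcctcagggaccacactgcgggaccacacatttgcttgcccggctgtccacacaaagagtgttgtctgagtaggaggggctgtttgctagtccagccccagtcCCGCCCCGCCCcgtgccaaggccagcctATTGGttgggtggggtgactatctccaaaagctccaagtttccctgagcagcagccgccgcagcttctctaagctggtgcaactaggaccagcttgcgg
Cemip, chr7:83735664-83735963, minus strand: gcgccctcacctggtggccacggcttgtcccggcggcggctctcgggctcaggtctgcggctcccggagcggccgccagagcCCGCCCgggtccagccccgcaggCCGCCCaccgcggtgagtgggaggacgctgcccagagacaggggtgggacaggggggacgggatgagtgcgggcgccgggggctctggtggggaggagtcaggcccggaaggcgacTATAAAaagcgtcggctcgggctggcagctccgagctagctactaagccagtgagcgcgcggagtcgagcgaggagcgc
Ugdh, chr5:65593136-65593435, minus strand: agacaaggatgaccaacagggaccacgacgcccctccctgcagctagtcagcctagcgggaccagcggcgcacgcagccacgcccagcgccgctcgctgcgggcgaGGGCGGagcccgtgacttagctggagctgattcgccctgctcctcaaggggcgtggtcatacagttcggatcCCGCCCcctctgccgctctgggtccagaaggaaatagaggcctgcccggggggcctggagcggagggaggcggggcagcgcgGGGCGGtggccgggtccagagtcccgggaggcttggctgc

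Each of these 4 windows held GGGCGG, which was also present in 35.7% of the 32851 promoters of the table. Cd44 held 1 copy, just after the start, Cemip and Hyal1 held 2 each, and Ugdh held 3. The 2 copies of Hyal1 lay on the opposite strand and overlapped by 1 base, 77 and 72 bases before the start. A CCAAT box was found on the opposite strand 49 bases before the start of Hyal1 (37.4% of promoters held one) and a TATAAA 29 bases before that of Cemip (13.6%). TGANTCA, held by 7.81% of promoters, was in none of the 4 windows. The promoter table held 7 of the 9 genes. A match is a description of the letters and not of binding.

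Cd44, the receptor of the set, was lower in senescent cells treated with either dose of fucoidan than in untreated senescent or control cells. The gene (ENSMUSG00000005087) lies on the minus strand of chromosome 2 at chr2:102641486-102732010. In mice 4, 5 and 6, its level was 1013.1, 759.76 and 871.97 CPM in control cells and 1201.1, 1026.6 and 709.28 CPM in senescent cells. It was 391.65, 321.43 and 314.86 CPM with fucoidan 100, and 575.62, 389.77 and 295.23 CPM with fucoidan 300. Every fucoidan culture was thus below every culture without fucoidan, while control and senescent values overlapped. This separation holds with the pair of control mouse 5 libraries summed: without TMM scaling they were at 893.3 and 466.9 CPM, and fucoidan 300 mouse 4 lay between them at 552.5 CPM. The share of all tested genes that separated in this way was not counted, here or for the genes below. Such a separation is therefore a description of the values and not a trait particular to the gene.

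Means were 882 ± 127 CPM (SD, n = 3) in control, 979 ± 249 in senescent, 343 ± 42.6 with fucoidan 100 and 420 ± 143 with fucoidan 300. A gene was called different when the edgeR quasi-likelihood test gave an adjusted p under 0.05, with the Benjamini-Hochberg adjustment over 15034 tested genes, and the log2 fold change was beyond 1 in either direction. Against untreated senescent cells, Cd44 was 2.86-fold lower with fucoidan 100 (log2 fold change -1.51, SE 0.257, adjusted p = 0.00792 by edgeR), and the log2 difference within mouse 4, 5 and 6 was -1.62, -1.68 and -1.17. With fucoidan 300 the log2 fold change was -1.22 (SE 0.255, edgeR adjusted p = 0.0286), with -1.06, -1.40 and -1.26 within the 3 mice. In both comparisons 1 of the 8 tested genes of the set was called, and it was Cd44, which was lower. Of all genes tested, 2.69% were called with fucoidan 100 (1.1% higher and 1.6% lower) and 1.64% with fucoidan 300 (0.752% higher and 0.885% lower).

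The Cd44 call with fucoidan 100 was made under 16 of 16 alternatives, with a log2 fold change from -1.62 to -1.16. The call with fucoidan 300 was made under 9 of 16 and lost in the fit of the 2 groups (adjusted p = 0.101) and under another handling of the control mouse 5 libraries (adjusted p = 0.0595 and 0.0737). It was also lost without senescent mouse 4 (log2 fold change -0.98, adjusted p = 0.0857 by edgeR), without senescent mouse 5 (-1.16, adjusted p = 0.0765), without fucoidan 300 mouse 6 (-1.02, adjusted p = 0.163) and without fucoidan 300 mouse 5 (-1.17, adjusted p = 0.115). Without the library of senescent mouse 6, the log2 fold changes were -1.55 with fucoidan 100 and -1.37 with fucoidan 300, and both passed.

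Senescent and control cells differed in Cd44 by a log2 fold change of 0.15 (95% interval -0.391 to 0.694, edgeR adjusted p = 0.782), less than the spread between mice. Against control cells, which both doses share as a reference, Cd44 was lower, with a log2 fold change of -1.36 with fucoidan 100 (edgeR adjusted p = 0.00172) and -1.07 with fucoidan 300 (edgeR adjusted p = 0.00799). The second of these no longer passed 2-fold without control mouse 4 (log2 fold change -0.92), without fucoidan 300 mouse 6 (-0.87), with the libraries of control mouse 5 kept separate (-0.99, edgeR adjusted p = 0.0188) or with library 5(2) of that mouse alone (-0.91, adjusted p = 0.048). The difference between the doses was 0.29 on the log2 scale, with a 95% interval of -0.249 to 0.838 (edgeR adjusted p = 0.97). In bulk RNA, fewer cells with a transcript and less RNA per cell cannot be told apart.

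**Figure D1:**
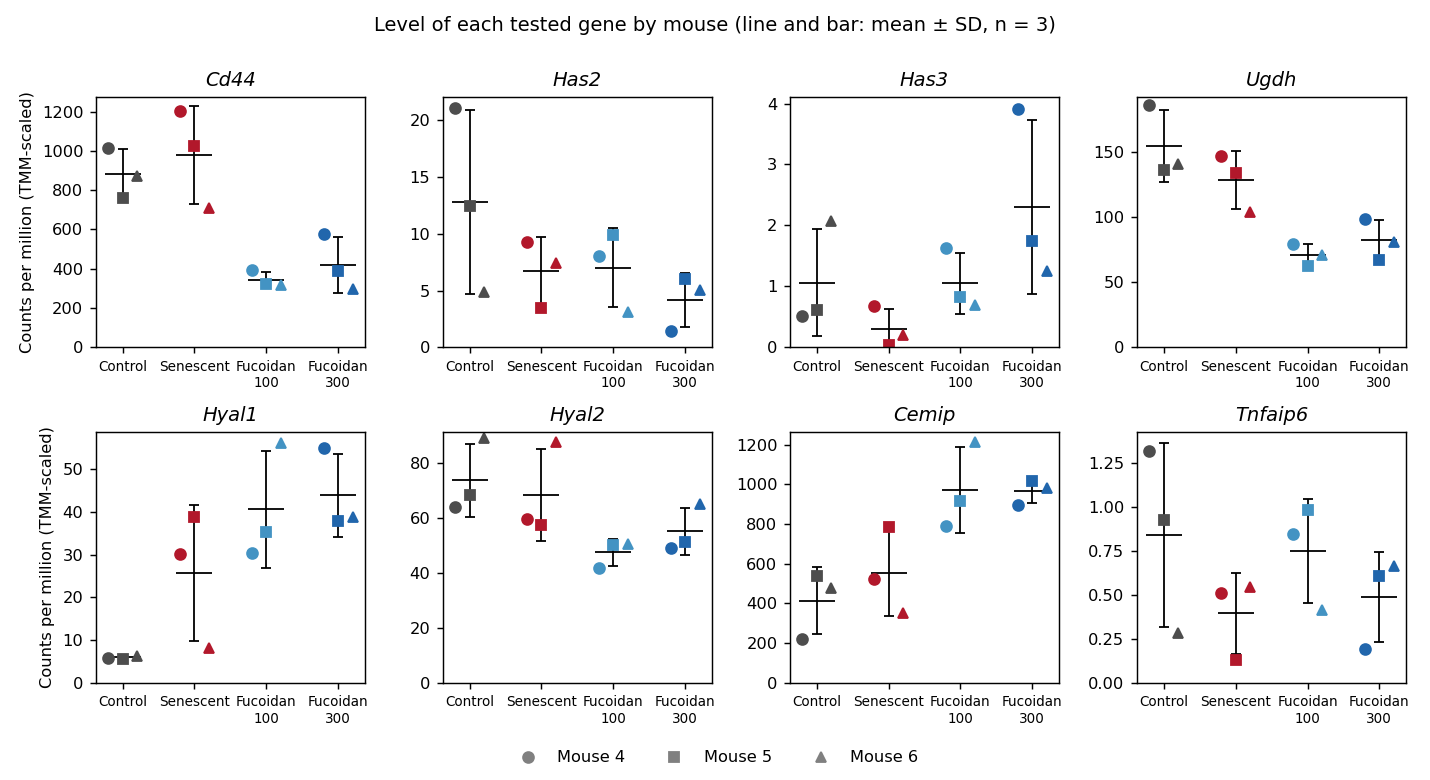
Level of the 8 tested genes in CPM (y axis, from 0 in each panel) for each mouse of the 4 groups, with the mean and SD of 3 mice as a line and bar. Cd44 lay at 295.23 to 575.62 CPM in the 6 fucoidan cultures and at 709.28 to 1201.1 CPM in the 6 cultures without fucoidan, and Hyal1 in senescent mouse 6 (8.05 CPM) lay near the control values.

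The annotation lists 9 transcripts of Cd44, of 1305 to 5654 bases, among them 1 of 19 exons and 5654 bases and 1 of 9 exons and 4409 bases, which differ by the variable exons in the extracellular stem. The mean transcript length that the authors' quantification assigned to Cd44 was 5164.27 bases in senescent mouse 6 and 3958.8 to 4309.79 bases in the other 12 libraries. Its level per length was lower in that library, at 158.75 TPM (transcripts per 1000000 transcripts), against 437.28 TPM in senescent mouse 4 and 331.07 TPM in senescent mouse 5. Transcripts were not tested separately. On the TPM scale the fucoidan 100 cultures (120.51 to 192.49 TPM) overlapped the senescent ones (158.75 to 437.28 TPM) through that library, and so did the fucoidan 300 cultures (114.38 to 212.09 TPM). The mean log2 differences in TPM were -0.88 and -0.80, below 0 as on the CPM scale. The TPM scale carried a shift of its own, since the median over 12790 genes was 0.38 higher with fucoidan 100 and 0.30 higher with fucoidan 300 than in senescent cells, while on the CPM scale the medians were -0.0185 and 0.000264.

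The 5 genes whose level followed that of Cd44 most closely over the 12 samples, by Pearson r of log2 CPM among 12646 genes, were Sgk1 (r = 0.9801), Col15a1 (0.9731), Nectin3 (0.9663), Rin1 (0.9612) and Ripk2 (0.9609). These 12 points share libraries and group differences, and the values describe likeness of pattern in these samples. Sgk1 encodes a serum- and glucocorticoid-regulated kinase, and Col15a1 a basement membrane collagen. Each of these 5 genes had 3.1% to 30% of its sequence in a single transcript.

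Of the synthases, Has2 was the one with the highest level, and none of the 3 was called by edgeR in the fit of the 4 groups. Has2 (ENSMUSG00000022367, chr15:56528342-56557999, minus strand) was at 21.1, 12.4 and 4.84 CPM in control mice 4, 5 and 6 and at 9.30, 3.45 and 7.41 CPM in senescent cells. It was at 8.01, 9.84 and 3.15 CPM with fucoidan 100 and at 1.43, 5.97 and 5.02 CPM with fucoidan 300. The values of all 4 groups overlapped. The log2 fold change was -0.93 in senescent against control cells (edgeR adjusted p = 0.403), 0.06 with fucoidan 100 against senescent cells (adjusted p = 0.972) and -0.70 with fucoidan 300 (adjusted p = 0.682).

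The whole exonic sequence of Has2 and of Tnfaip6 lies in a single transcript, so both belong to the unevenly counted genes. In 12 of 13 libraries Has2 was below its own mean where the single-transcript genes were low and above it where they were high. Tnfaip6 did so in 13 of 13 libraries, and Cd44, with 22.0% of such sequence, in 5 of 13. Between the libraries of control mouse 5, Has2 had 123 counts in one and 511 in the other, and the cause was not tested. With an offset for single-transcript sequence, length and GC content, Has2 was called lower than in control cells with fucoidan 100 (log2 fold change -1.68, edgeR adjusted p = 0.00309) and with fucoidan 300 (-1.97, adjusted p = 0.00127), against -0.87 (adjusted p = 0.333) and -1.63 (adjusted p = 0.0832) without it. Has2 with fucoidan 300 against control cells was also called by DESeq2 (-1.59, adjusted p = 0.0413) and by edgeR without the filter on low counts (-1.62, adjusted p = 0.0124). The 5 genes most like Has2 over the 12 samples were Lrrc8c (r = 0.983), Hspa9 (0.974), Kpnb1 (0.972), Ddx21 (0.971) and Sfxn1 (0.969), each with 71.5% to 96.1% of its sequence in a single transcript.

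**Figure D2:**
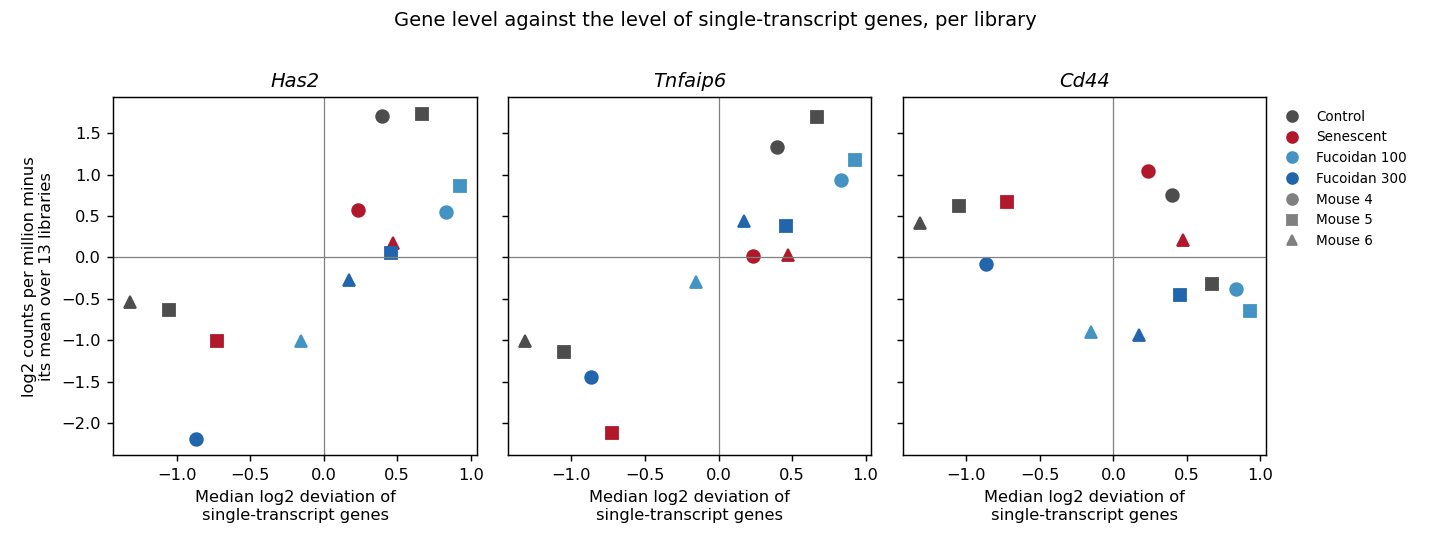
For each of the 13 libraries, the log2 deviation of Has2, Tnfaip6 and Cd44 from its own mean over libraries (y axis, log2 CPM without TMM scaling) against the median log2 deviation of the 2081 single-transcript genes (x axis), with color for the group and shape for the mouse. Has2 and Tnfaip6 lay low in the libraries where those genes lay low. Cd44 was on the same side of its mean as those genes in 5 of 13 libraries. Whether the uneven counting touches Cd44 in the other direction was not tested.

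Has3 (ENSMUSG00000031910, chr8:107596874-107611198, plus strand) was near the limit of counting, with 1 to 101 expected counts per library. It was at 0.51, 0.609 and 2.07 CPM in control cells and at 0.671, 0.0431 and 0.204 CPM in senescent cells of mice 4, 5 and 6. With fucoidan 100 it was at 1.63, 0.833 and 0.692 CPM and with fucoidan 300 at 3.92, 1.74 and 1.24 CPM. Every fucoidan culture was above every senescent culture, a separation that was not counted over all tested genes. The log2 fold changes of 1.74 (edgeR adjusted p = 0.328) and 2.87 (adjusted p = 0.154) did not pass. By DESeq2 the difference with fucoidan 300 was called (log2 fold change 2.90, adjusted p = 0.0219). Has1 (ENSMUSG00000003665, chr17:18063585-18075467, minus strand) had 0 to 9 expected counts per library and did not pass the filter on low counts.

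Ugdh (ENSMUSG00000029201, chr5:65570551-65593805, minus strand) encodes UDP-glucose dehydrogenase, which makes UDP-glucuronic acid. Its level in mice 4, 5 and 6 was 186, 136 and 141 CPM in control cells, 147, 134 and 104 CPM in senescent cells, 79.2, 62.2 and 70.8 CPM with fucoidan 100 and 98.6, 67.5 and 81.3 CPM with fucoidan 300. Every fucoidan culture was below every culture without fucoidan, though the share of all tested genes with such a separation was not counted. With fucoidan 100 the log2 fold change against senescent cells was -0.86 (SE 0.206, edgeR adjusted p = 0.0384), so the p passed and the fold did not, and with fucoidan 300 it was -0.64 (adjusted p = 0.139). Against control cells Ugdh was called lower with fucoidan 100 (log2 fold change -1.13, edgeR adjusted p = 0.0015), a call that was lost without control mouse 4 (-0.82, adjusted p = 0.0165). With fucoidan 300 the log2 fold change against control cells was -0.91 (adjusted p = 0.00619), also short of 2-fold. On the TPM scale senescent (69.47 to 155.31) and fucoidan 100 (80.79 to 102.79) values of Ugdh overlapped.

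Hyal1, a lysosomal hyaluronidase gene (ENSMUSG00000010051, chr9:107454126-107458909, plus strand), was the 1 gene of the set called in senescent against control cells. It was at 5.82, 5.65 and 6.25 CPM in control mice 4, 5 and 6, at 30.1, 38.8 and 8.05 CPM in senescent cells, at 30.4, 35.3 and 56.2 CPM with fucoidan 100, and at 55.0, 37.8 and 38.8 CPM with fucoidan 300. All cultures given etoposide were above the 3 control cultures, and senescent mouse 6 was the one nearest to them. How many of all tested genes did the same was not counted. In senescent against control cells the log2 fold change was 2.12 (SE 0.452, edgeR adjusted p = 0.00825), and 2.36, 2.77 and 0.36 within mice 4, 5 and 6. Without senescent mouse 6 it was 2.55 (adjusted p = 6.4e-05), and in a fit of the 2 groups alone the call was lost (adjusted p = 0.0602). This was 1 gene called of 8 tested, 1 higher and 0 lower, where 8.42% of all tested genes were called, 4.47% higher and 3.95% lower.

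Hyal1 did not differ detectably between fucoidan and senescent cultures, with log2 fold changes of 0.66 (95% interval -0.266 to 1.59, edgeR adjusted p = 0.433) and 0.77 (-0.157 to 1.71, adjusted p = 0.436). Against control cells it was called higher with both doses (log2 fold changes 2.78 and 2.89, edgeR adjusted p = 0.000754 and 0.000627). Hyal1 shares 61.45% of its exonic bases on the same strand with Hyal3 and Naa80, so the quantification may divide reads among them. Summed over these 3 genes, the level was 13.81 to 25.42 CPM in control cells, 41.49 to 67.77 in senescent cells, 64.92 to 93.63 with fucoidan 100 and 70.49 to 89.37 with fucoidan 300. Naa80, an actin N-acetyltransferase gene, was itself at 7.989 to 19.17 CPM in control and 28.37 to 32.89 CPM in senescent cells, and Hyal1 was 19.41% of the sum in senescent mouse 6 against 49.35% and 57.32% in senescent mice 4 and 5. Hyal1 is also expressed by macrophages. The 7 leukocyte markers summed to 3.572 to 5.227 CPM in control cells, 3.323 to 17.67 in senescent cells, 7.043 to 15.4 with fucoidan 100 and 4.11 to 11.99 with fucoidan 300, of which 2, 3, 4 and 3 markers had a group mean over 1 CPM, none of the 7 was at 0 in a whole group, and the part of such cells in the result was not tested.

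Hyal2 (ENSMUSG00000010047, chr9:107445086-107450171, plus strand), the cell-surface hyaluronidase gene next to Hyal1, was at 63.9, 68.4 and 88.9 CPM in control cells of mice 4, 5 and 6 and at 59.6, 57.6 and 87.5 CPM in senescent cells. It was at 41.9, 50.2 and 50.6 CPM with fucoidan 100 and at 49.1, 51.3 and 64.9 CPM with fucoidan 300. The log2 fold change was -0.11 in senescent against control cells, -0.52 with fucoidan 100 against senescent cells (edgeR adjusted p = 0.203) and -0.31 with fucoidan 300 (adjusted p = 0.566), none of them called. On the TPM scale the differences from senescent cells were 0.05 and 0.23 in log2, both below the medians of 0.38 and 0.30 over 12790 genes. The sign thus differed between the scales, while on both scales Hyal2 lay below the median gene. As it was not called, no direction is given for Hyal2.

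Cemip, whose product is needed for the breakdown of hyaluronan by fibroblasts (ENSMUSG00000052353, chr7:83582065-83735724, minus strand), rose against control cells with both doses. In mice 4, 5 and 6 it was at 221, 539 and 479 CPM in control cells, 525, 786 and 350 CPM in senescent cells, 792, 914 and 1213.5 CPM with fucoidan 100 and 896, 1015.8 and 984 CPM with fucoidan 300. Every fucoidan culture was above every culture without fucoidan, while control and senescent values overlapped. The share of all tested genes that separated like this was not counted. Against control cells the log2 fold changes were 1.24 (edgeR adjusted p = 0.0142) and 1.22 (adjusted p = 0.0157). The first call was lost without fucoidan 100 mouse 6 (1.04, adjusted p = 0.0545) and the second without control mouse 4, where the fold fell short (0.97, adjusted p = 0.0329).

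Against senescent cells Cemip had log2 fold changes of 0.81 (SE 0.327, edgeR adjusted p = 0.185) and 0.80 (SE 0.327, adjusted p = 0.252), neither called, and against control cells senescent cells had 0.42 (adjusted p = 0.475). On the TPM scale the corresponding log2 differences from senescent cells were 1.24 and 1.18, where the medians over 12790 genes were 0.38 and 0.30. Between the doses the log2 difference of Cemip was -0.01 (95% interval -0.713 to 0.689).

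Tnfaip6 (ENSMUSG00000053475, chr2:51927998-51946698, plus strand) was at 0.129 to 1.32 CPM over the 12 samples, with 3 to 40 expected counts per library. Its log2 fold changes were -1.08 in senescent against control cells, 0.90 with fucoidan 100 against senescent cells and 0.29 with fucoidan 300, none called, and the 95% intervals ran from -3.00 to 0.846, from -1.02 to 2.83 and from -1.64 to 2.22. Changes of several-fold in Tnfaip6 were therefore not detectable in these samples. The parts that low counts and the uneven counting between libraries had in this were not tested.

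**Figure D3:**
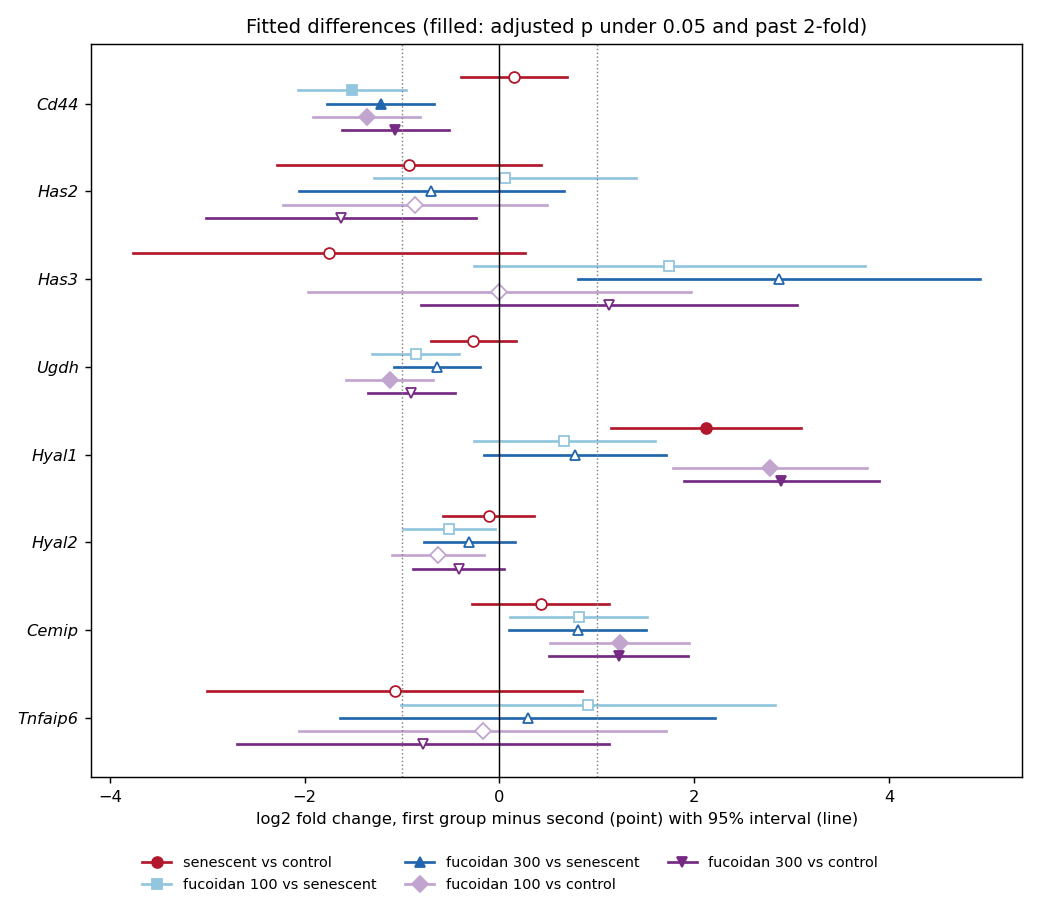
Fitted log2 fold changes (points) with 95% intervals (lines) of the 8 tested genes in 5 comparisons, where filled points have an edgeR adjusted p under 0.05 and a log2 fold change beyond 1 (dotted lines). Cd44 is filled on the left in the 4 comparisons of fucoidan with senescent or control cells, and Hyal1 on the right in the 3 comparisons with control cells. Also filled are Cemip on the right with both doses against control cells and Ugdh on the left with fucoidan 100 against control cells.

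Over the 8 tested genes, 4 were called with fucoidan 100 against control cells (Cd44 and Ugdh lower, Cemip and Hyal1 higher), where 19.6% of all tested genes were called. With fucoidan 300 against control cells 3 were called (Cd44 lower, Cemip and Hyal1 higher), where 18.0% of all tested genes were called. These comparisons share the control samples with each other, and the fucoidan comparisons above share the senescent ones. Between fucoidan 300 and fucoidan 100, 0 of 8 were called by edgeR and 0 had an unadjusted p under 0.05, and 0.00665% of all tested genes, or 1 gene, was called, with 94 genes at an unadjusted p under 0.05 and 1 called by DESeq2. The median log2 fold change of the 8 genes was -0.189 in senescent against control cells, 0.36 with fucoidan 100 and -0.00851 with fucoidan 300 against senescent cells, beside 0.0717, -0.0185 and 0.000264 over all tested genes.

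Compared per length, in TPM, the order of the 9 genes changed at its top. In control cells Cd44 came first at 274.24 ± 57.5 TPM (SD, n = 3), above Ugdh at 147.61 ± 35.0 and Cemip at 127.4 ± 51.6, and the ranges of Ugdh and Cemip overlapped. In senescent cells Cd44 (309.03 ± 140.6 TPM), Cemip (180.71 ± 81.2) and Ugdh (122.22 ± 46.2) overlapped as neighbours. In both fucoidan groups Cemip came first, at 395.86 ± 61.3 TPM with fucoidan 100 and 378.96 ± 49.3 with fucoidan 300, and its range did not overlap that of Cd44, at 157.62 ± 36.0 and 168.19 ± 49.6 TPM. With fucoidan 100 the ranges of Cd44 and Ugdh did not overlap, and with fucoidan 300 they did (114.38 to 212.09 and 87.68 to 116 TPM).

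Hyal2 had rank 4 in every group, at 50.75 to 59.55 TPM on average, with a range apart from its neighbours. Hyal1 averaged 3.56 TPM in control cells, within the range of Has2 (mean 4.13 TPM), and 17.66, 31.69 and 31.75 TPM in the 3 etoposide groups, where it was above Has2 (1.68 to 3.16 TPM) with no overlap. Tnfaip6, Has3 and Has1 were under 1 TPM on average in every group. Tnfaip6 and Has3 overlapped in each of the 4 groups.

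**Figure D4:**
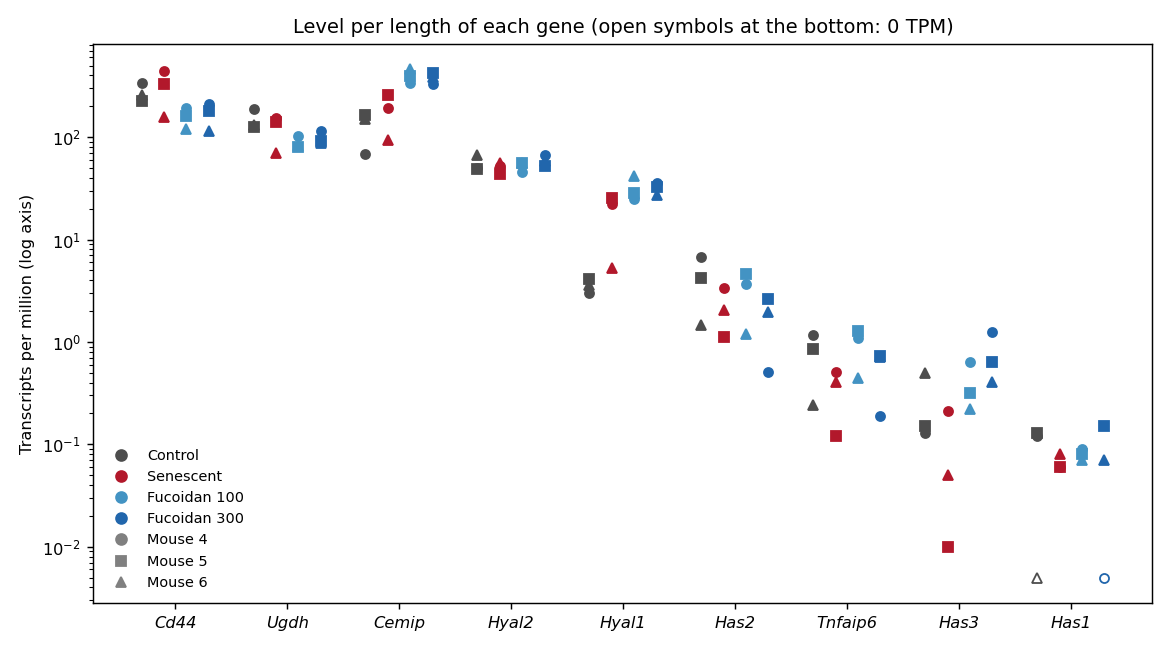
Level per length of the 9 genes in TPM (log axis) for each mouse of the 4 groups, with the pair of control libraries of mouse 5 averaged and open symbols for 0 TPM. Cd44 was highest in control cells (227 to 338.24 TPM) and Cemip in both fucoidan groups (326.98 to 458.52 TPM).

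A list of 54 other genes of hyaluronan metabolism and CD44 biology was described beside the 9, and 40 of them passed the filter. In senescent against control cells 1 was called higher and 2 lower by edgeR, where 8.42% of all tested genes were called, with a list median of 0.133. Spp1, which encodes the CD44 ligand osteopontin, rose from 387, 287 and 478 CPM in control mice 4, 5 and 6 to 1420, 1288.5 and 1081.8 CPM in senescent cells (log2 fold change 1.72, adjusted p = 0.00129). Hmmr, a hyaluronan receptor gene that is transcribed in dividing cells, fell from 20.95, 16.941 and 9.7747 CPM to 1.02, 0.302 and 1.09 CPM (log2 fold change -4.29, adjusted p = 0.000571). Ezr, encoding ezrin, which ties CD44 to actin, fell from 26.2, 11.2 and 11.3 CPM to 4.76, 2.46 and 5.16 CPM (log2 fold change -1.97, adjusted p = 0.00891). The Hmmr and Spp1 calls were made under 16 of 16 alternatives, and that of Ezr was lost in the fit of the 2 groups and without control mouse 4 (-1.45, adjusted p = 0.0578).

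With fucoidan 100 against senescent cells 2 of the 40 were called higher and 0 lower, where 1.1% of all tested genes were called higher and 1.6% lower, with a list median of 0.164. Ptx3, encoding pentraxin 3, a partner of TNFAIP6 in hyaluronan-rich matrix, was at 4.60, 3.88 and 3.36 CPM in senescent mice 4, 5 and 6 and at 49.7, 41.9 and 43.5 CPM with fucoidan 100 (log2 fold change 3.51, edgeR adjusted p = 0.022). It was 18.1, 10.3 and 0.846 CPM in control cells. The call was lost when any 1 of the 6 libraries was left out, with adjusted p = 0.0544 to 0.0896 and log2 fold changes of 3.43 to 3.82. Vcan, encoding versican, a large proteoglycan that binds hyaluronan, was at 144, 220 and 70.4 CPM in senescent cells and at 390, 344 and 1056.1 CPM with fucoidan 100 (log2 fold change 2.04, edgeR adjusted p = 0.0283). That call was lost in the fit of the 2 groups (2.10, adjusted p = 0.0974), without senescent mouse 4 (2.16, adjusted p = 0.0512), without fucoidan 100 mouse 6 (1.34, adjusted p = 0.0938) and with mouse as a replicate block (1.89, adjusted p = 0.066).

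With fucoidan 300 the 1 called gene of the list was Vcan, at 566, 383 and 745 CPM in mice 4, 5 and 6 (log2 fold change 1.96, edgeR adjusted p = 0.0455), where 0.752% of all tested genes were called higher, and the list median was 0.0703. It was lost in the fit of the 2 groups (edgeR adjusted p = 0.0625), with library 5(2) of control mouse 5 alone (adjusted p = 0.0548), with mouse as a replicate block (1.88, adjusted p = 0.0942) and when any 1 of 5 of the 6 libraries was left out (adjusted p = 0.0682 to 0.199), all but senescent mouse 5. Ptx3 was at 13.9, 27.0 and 49.1 CPM (log2 fold change 2.92, adjusted p = 0.0621). Between the doses 0 of the 40 were called, and 0 had an unadjusted p under 0.05.

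By role, 8 of 8 genes for the sugar precursors passed the filter and 0 were called in the 3 comparisons, with medians of -0.052 in senescent against control cells and -0.211 and -0.192 with fucoidan 100 and 300 against senescent cells. Of 9 other breakdown genes 5 were tested and 0 called. Of 17 genes for binding proteins 11 were tested, with 2 called higher with fucoidan 100 and 1 with fucoidan 300. Of 7 other receptors 6 were tested, with 1 called lower in senescent against control cells. Spp1 and Ezr were the calls among the CD44 ligands and partners. Of all tested genes 8.42%, 2.69% and 1.64% were called in the 3 comparisons, so 0 calls among so few genes is no result about a role. Of the 3 sheddases of CD44, Mmp14, Adam10 and Adam17, 0 were called with either dose. The log2 differences of Adam10 with fucoidan 100 against senescent cells were 0.033, -0.085 and 1.71 within mice 4, 5 and 6 and those of Adam17 were 0.054, -0.32 and 1.27, so their sign was not the same in every mouse. Mmp14 was at 772 ± 69.4 CPM in control, 853 ± 111 in senescent, 1022.5 ± 241 in fucoidan 100 and 1083.4 ± 99.5 in fucoidan 300 cultures. Chondrocyte markers, whose cells also make versican, aggrecan and hyaluronan, summed to 618 to 873 CPM in control, 228 to 356 in senescent, 125 to 233 in fucoidan 100 and 169 to 240 in fucoidan 300 cultures, with 4, 3, 3 and 4 of the 6 markers over 1 CPM and Matn1 at 0 in 3 of the groups. Most of this sum was Col2a1, at a mean of 719, 272, 142 and 179 CPM in the 4 groups in that order, whereas Comp was at 1.119, 3.418, 25.41 and 14.95 CPM and Sox9 at 3.73, 2.86, 6.65 and 4.68 CPM. The part of such cells in these results was not tested.

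**Figure D5:**
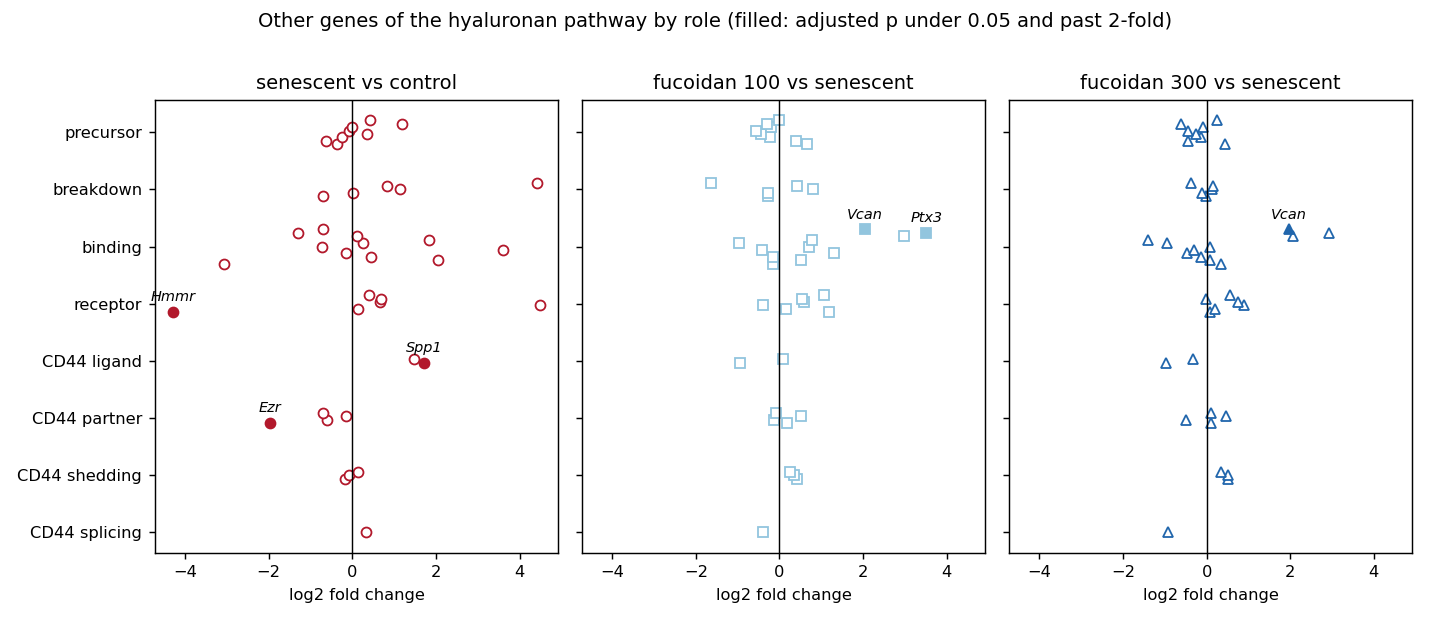
Log2 fold changes of the 40 tested other genes of the hyaluronan pathway, by role (rows), in senescent against control cells and in fucoidan 100 and 300 against senescent cells. Filled and named points passed the thresholds: Spp1 to the right and Hmmr and Ezr to the left in the first panel, Ptx3 and Vcan to the right in the second, and Vcan in the third.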

How the data were processed

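RNA-seq of MEFs was analysed in 13 libraries of 12 samples (4 groups, 3 replicates each, by the labels' treatment and mouse number). Per the study's methods, the authors used a stranded total RNA kit and paired-end reads, with FastQC 0.12.1, STAR 2.7.11b, the GRCm39 genome and RSEM 1.3.1, and the submitters' processing notes also name Trimmomatic. The deposited tables hold RSEM expected counts, TPM and a mean transcript length per gene. The strand setting and multi-mapping rule are not given in the sources used here. A separate deposited table of the authors' own comparisons (fold changes and p-values) was not used.

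Expected counts were rounded, the pair of control mouse 5 libraries was summed, and genes were filtered with filterByExpr (minimum count 10, minimum total 15), which left 15034. One edgeR 4.0.16 quasi-likelihood model (R 4.3.3) with TMM factors was fitted to the 4 groups, and p-values were adjusted by Benjamini-Hochberg over all tested genes. The study's methods instead name DESeq2, with the same thresholds on adjusted p and fold change. DESeq2 was run here as an alternative. A gene was called when its adjusted p was below 0.05 and its log2 fold change lay beyond 1 in either direction. TPM served to compare genes with each other. Levels were CPM after TMM scaling, and a prior count of 2 was used for log2 CPM.

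The named genes were the 9 members, the genes of the pathway list called in senescent against control cells or at either dose against senescent cells, and the 5 genes most like Cd44 and Has2. Members and lists were chosen with earlier results of these data known. The sum of Hyal1, Hyal3 and Naa80 and the TPM differences were added after the values were seen.

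The labels give the same mouse numbers in every group, so cultures of one mouse were paired by label and a replicate block was run as an alternative. Deviations from group means correlated between same-numbered cultures with a median r of -0.006 (18 pairs, -0.204 to 0.425, 8 of them over 0.1). Other settings tried were RLE factors, DESeq2 1.42.0, a fit of 2 groups, no filter, the handling of control mouse 5, the block, an offset for single-transcript sequence, leaving out each library, and the adjusted p alone. The labels name separate mice, and the p-values measure the spread between these cultures.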

Additional observations from a re-analysis of the deposited data

How the results depend on the processing

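Of 768 values of single genes in 48 gene comparisons under 16 alternatives each, 733 kept their call or moved by less than the spread, 15 lost the call and 10 gained one with the same direction (6 of Has2, 3 of Ugdh and 1 of Has3), 10 uncalled values moved by more, and 0 called values turned direction. In senescent against control cells the fit of the 2 groups called 0 of the 9 genes (Hyal1 was lost), against 1. With fucoidan 100 against senescent cells the single-transcript offset, the offset with the replicate block and the adjusted p alone each called 2 (Cd44 and Ugdh). With fucoidan 300 against senescent cells DESeq2 called 2 (Cd44 and Has3), while the fit of the 2 groups, separate libraries of control mouse 5 and library 5(2) alone each called 0, and leaving out 1 library gave 0 to 1. With fucoidan 300 against control cells leaving out 1 library gave 1 to 4, and the 1 was without control mouse 4.

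Of the pathway list in senescent against control cells, DESeq2 and no filter each called 7, separate libraries of control mouse 5 called 5, the offset 6, and leaving out 1 library gave 2 to 5 (5 without control mouse 6), against 3. With fucoidan 100 against senescent cells the fit of the 2 groups and the replicate block each called 1 and leaving out 1 library 0 to 1, against 2. With fucoidan 300 against senescent cells DESeq2, no filter, the offset, and the offset with the replicate block each called 2, library 5(2) alone and the replicate block alone each 0, and leaving out 1 library 0 to 1, against 1. The share of all tested genes called under each alternative is not given here. The counts of the 9 genes and of the list under the alternatives therefore describe the settings and not the genes. The causes were not tested. The paired fit with the replicate block changed no call of the 9 genes (Cd44 with fucoidan 300 against senescent cells had a log2 fold change of -1.24, edgeR adjusted p = 0.0146).

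Has1 (0 to 9 expected counts per library), Has3 (1 to 101) and Tnfaip6 (3 to 40) had few counts. Has2 and Tnfaip6 belong to the single-transcript genes, which were counted unevenly between libraries, and the cause of this unevenness was not tested.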
